A study of Homo sapiens with 6 samples.

Results

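The genes described here are those whose array annotation title contains the word kinase, in colon fibroblasts with and without the hedgehog ligand SHH. The source of the genes and their names is a table deposited by the authors, which holds the 2411 probe sets (4.41% of all) with a p-value at or under 0.05 for SHH against untreated cells. Of these, 95 probe sets have 1 array annotation symbol and a title with kinase. The genes TK1, KIT and EPHA2 were excluded by name. Leaving out 3 with urokinase in the title and 2 of thymidine kinase 1 (TK1) left 90 probe sets of 67 genes, out of 54613 probe sets on the arrays. Because a p-value of the same comparison in the same 6 samples chose these genes, their differences are given as a description without a test, and kinase genes that did not meet that p-value carry no name here.

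Affymetrix arrays with a single colour measured the expression of CCD-18Co, an established line of human colon fibroblasts that the submitters call primary myofibroblasts. The medium of all cells held 0.1% bovine serum albumin. One group of 3 biological replicates received SHH (sonic hedgehog) at 1 ug/ml for 72 h, and the other group of 3 was left untreated, called vehicle in the deposited readme. The time in culture of the untreated cells is not given. The line is 1 isolate, so the replicates carry no spread between donors.

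Kinases transfer the terminal phosphate of ATP to another molecule. Protein kinases act on serine, threonine or tyrosine of proteins and switch signalling steps on or off, receptor kinases do so at the cell surface when a ligand binds, lipid and inositol kinases make and remove second messengers, and metabolite kinases phosphorylate sugars, nucleotides and vitamins. In the hedgehog pathway itself, protein kinase A, glycogen synthase kinase 3 and casein kinase 1 are known to phosphorylate the GLI transcription factors when no ligand is present, which marks them for processing or degradation.

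By role, 3 of the 67 genes encode receptor kinases, 37 encode other protein kinases, 5 encode lipid and inositol phosphate kinases and 9 encode metabolite kinases. The other 13 are no kinases but regulatory subunits, anchors, inhibitors, activators or substrates with kinase in their title. Each gene is represented by the brightest of its probe sets among the 90. Of the 67 genes, 42 were lower and 25 were higher with SHH. That is 37.3% higher, against 51.2% of the 2411 probe sets of the authors' table and 42.8% of all 54613. The median log2 difference of the 67 genes was -0.34, the median over the authors' 2411 probe sets 0.25 and that over all probe sets -0.05. Differences here are SHH minus untreated on the scale log2(intensity + 16), which understates the change of dim probe sets. Their median size was 0.50, beside 0.53 over the authors' 2411 probe sets. The direction of none of the 67 genes changed under 11 other settings that the closing section describes. For the 65 genes whose groups did not overlap, only centring and quantile normalization could have reversed a direction.

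The arrays of both groups did not overlap for 65 of the 67 genes, beside 17.3% of all probe sets and 95.7% of the authors' table. No gene passed limma's test at an adjusted p under 0.05, which called 0.123% of all probe sets, while 54 of the 67 had an unadjusted limma p under 0.05, as did 9.72% of all probe sets. With an intensity trend in limma's prior, 27 of the 67 passed, beside 1.86% of all probe sets and 42.0% of the authors' 2411. Of these 27, 9 were higher and 18 lower, beside 1.01% and 0.85% of all probe sets. Since the p-value of this comparison chose the genes, nothing is read from these counts. At the edge of the choice, DYRK4 and STK10 had p-values of 0.0499 and 0.0496 in the authors' deposited table, with log2 differences of 0.39 and -0.49, and the first probe set outside it, which has no name here, had p = 0.0500002 there and a log2 difference of 0.26.

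**Figure D1:**
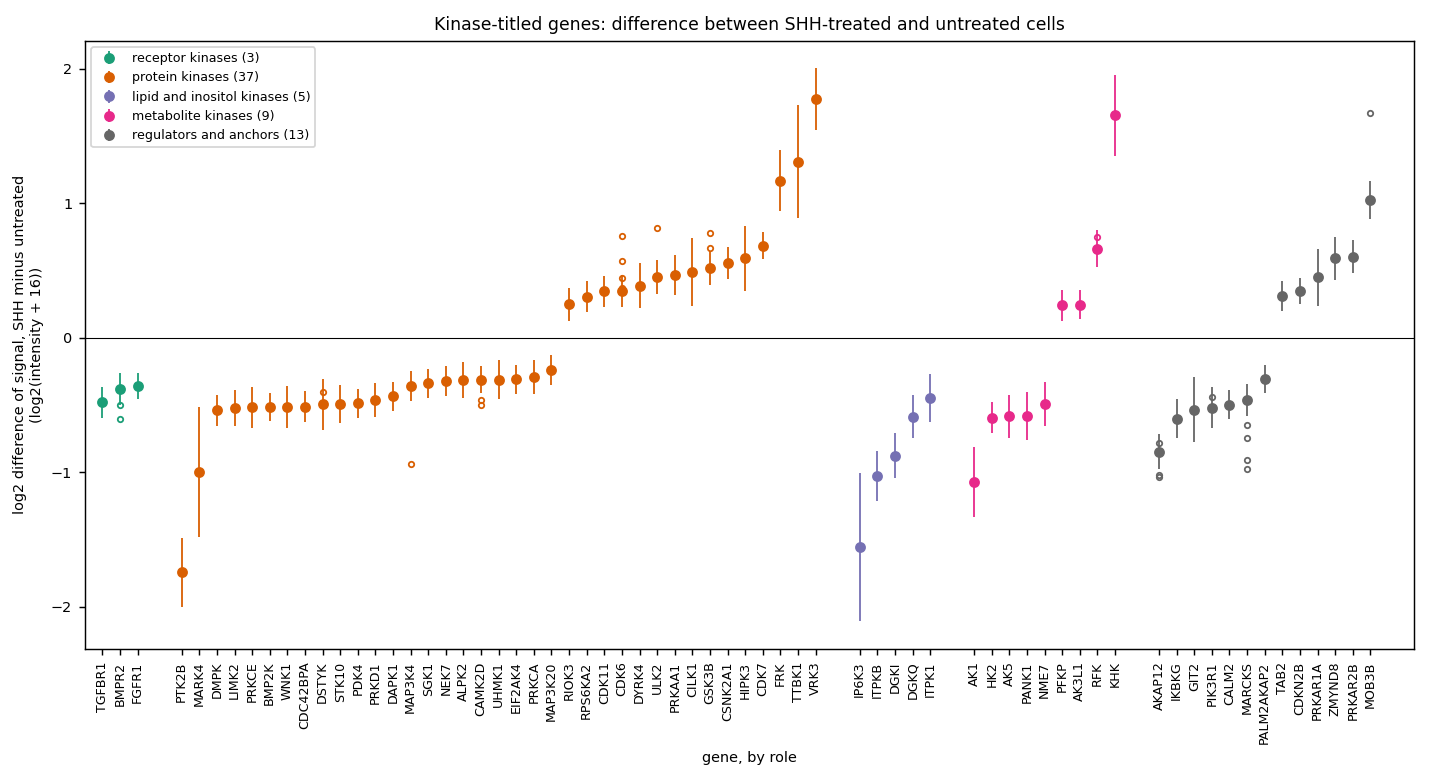
Log2 difference of signal (SHH minus untreated, y axis) for each of the 67 kinase-titled genes (x axis), grouped by role. Filled points are the brightest probe set with limma's moderated standard error as the bar, open points are further probe sets of the same gene. All 3 receptor kinases and all 5 lipid and inositol kinases lie below 0, and the other roles lie on both sides.

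Promoter sequences are shown for 5 member genes, picked after their values were seen as examples of both directions. GSK3B and CDK6 (higher) and MARCKS and AKAP12 (lower) are among the 12 genes that more than 1 probe set measured, and PRKAR1A is the regulatory subunit of protein kinase A whose promoter holds a cyclic AMP response element. The sequences come from RefSeq on GRCh38.p14 and run from 250 bases before to 50 bases after an annotated transcript start, 5′ to 3′ on the strand of the gene. Capitals mark the GC box GGGCGG or its reverse complement in GSK3B, CDK6, MARCKS and AKAP12, and the cyclic AMP response element TGACGTCA in PRKAR1A. The windows are chr3:120094398-120094697, minus strand for GSK3B, chr7:92836524-92836823, minus strand for CDK6, chr6:113857095-113857394, plus strand for MARCKS, chr6:151239717-151240016, plus strand for AKAP12 and chr17:68512129-68512428, plus strand for PRKAR1A. The table holds 1 window each for GSK3B and MARCKS. The windows of CDK6 and AKAP12 are the first of 2 and of 3 listed, and that of PRKAR1A is the first of its 5 to hold the element.
GSK3B: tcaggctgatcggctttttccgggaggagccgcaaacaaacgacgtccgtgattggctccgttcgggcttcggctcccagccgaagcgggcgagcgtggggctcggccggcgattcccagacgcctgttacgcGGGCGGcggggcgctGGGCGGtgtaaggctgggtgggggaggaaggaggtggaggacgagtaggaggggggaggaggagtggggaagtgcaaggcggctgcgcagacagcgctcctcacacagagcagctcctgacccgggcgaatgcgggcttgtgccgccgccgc
CDK6: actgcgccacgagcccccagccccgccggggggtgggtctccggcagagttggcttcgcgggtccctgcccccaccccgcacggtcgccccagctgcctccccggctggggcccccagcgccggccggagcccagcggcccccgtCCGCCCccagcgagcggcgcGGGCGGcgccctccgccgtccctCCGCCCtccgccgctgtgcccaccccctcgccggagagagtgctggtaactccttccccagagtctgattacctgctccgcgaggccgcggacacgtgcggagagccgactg
MARCKS: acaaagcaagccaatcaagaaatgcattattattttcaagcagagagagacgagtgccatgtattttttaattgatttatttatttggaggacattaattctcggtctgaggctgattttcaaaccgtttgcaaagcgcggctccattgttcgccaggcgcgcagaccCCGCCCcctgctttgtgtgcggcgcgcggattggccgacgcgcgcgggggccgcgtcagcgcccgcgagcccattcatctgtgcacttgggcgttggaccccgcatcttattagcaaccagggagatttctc
AKAP12: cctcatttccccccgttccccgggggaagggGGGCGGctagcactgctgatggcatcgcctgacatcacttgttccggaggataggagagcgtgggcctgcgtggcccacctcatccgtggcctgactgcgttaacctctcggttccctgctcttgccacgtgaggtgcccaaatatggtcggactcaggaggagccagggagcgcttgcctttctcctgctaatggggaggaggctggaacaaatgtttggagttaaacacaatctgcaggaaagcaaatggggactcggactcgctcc
PRKAR1A: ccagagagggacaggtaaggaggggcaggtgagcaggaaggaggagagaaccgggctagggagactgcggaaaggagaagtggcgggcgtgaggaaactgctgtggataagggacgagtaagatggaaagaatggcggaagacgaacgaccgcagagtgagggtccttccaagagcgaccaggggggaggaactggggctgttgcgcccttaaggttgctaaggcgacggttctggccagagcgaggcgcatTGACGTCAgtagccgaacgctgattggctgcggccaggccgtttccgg

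Of the 67 genes, 56 have a promoter window in the RefSeq table, 107 windows in all. The GLI consensus TGGGTGGTC, searched on both strands, was in none of the 107 and in 0.238% of all 34943 windows. The cyclic AMP response element was in 2 of the 107 windows (1.87%), both of PRKAR1A, and in 1.84% of all windows. Its shorter form TGACG was in 22.4% of the member windows and 24.5% of all, and the E-box CACGTG in 8.41% and 7.23%. GC boxes were in 59.8% of the member windows, beside 44.9% of all windows, CCAAT boxes in 33.6% beside 34.6%, and TATAAA in 7.48% beside 11.6%. The median GC content was 65.3% in the member windows and 58.7% in all windows, and its part in the share with a GC box was not tested. The printed windows have GC contents of 69.3% (GSK3B), 78.0% (CDK6), 53.0% (MARCKS), 59.7% (AKAP12) and 61.0% (PRKAR1A). A match of letters is a description and not a measured binding site.

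All 3 receptor kinases were lower with SHH. TGFBR1, the type I receptor of transforming growth factor beta, was the brightest of all 67 genes, with signals of 12631, 13073 and 14548 on the untreated arrays and 9813, 9935 and 9065 on the SHH arrays. The groups did not overlap. On the log2 scale the difference was -0.48 ± 0.11, where the error, here and for the other log2 differences, is the moderated standard error of limma with n = 3 per group. BMPR2 is the type II receptor of bone morphogenetic proteins. Its brightest probe set gave 1349, 1413 and 1351 on the untreated arrays and 1171, 972 and 1016 on the SHH arrays, a difference of -0.38 ± 0.12, and all 3 of its probe sets were lower, at -0.38, -0.60 and -0.50. The array annotation gives a further probe set to FGFR1, a receptor of fibroblast growth factors, but the authors' own symbol for it is LETM2, so that its gene is uncertain. It had signals of 2088, 2035 and 1994 on the untreated arrays and 1575, 1598 and 1577 on the SHH arrays, with every SHH array below every untreated array, and a difference of -0.36 ± 0.10. Kinases whose title lacks the word are outside this set, such as the platelet-derived growth factor receptor PDGFRB, which was named after its value was seen and lay at -0.46 ± 0.13, with 5154, 4447 and 4469 on the untreated arrays and 3079.6, 3697 and 3425 on the SHH arrays.

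Of a list of 62 ligands of receptor kinases, written with earlier results of these data known, 20 had a name, 9 higher and 11 lower, with 1 past limma's adjusted threshold, the GDNF-family factor NRTN (higher, at 1.67 ± 0.15), beside 0.123% of all probe sets. With the intensity trend 6 higher and 5 lower ligands passed, beside 1.01% and 0.85% of all probe sets. Names come only from the authors' p-value table, so nothing is read from these counts. Among the ligands of fibroblast growth factor receptors, FGF1, FGF2, FGF5 and FGF7 were lower, at -0.62, -0.53, -0.53 and -0.58 on the log2 scale, and FGF9 was higher at 0.79, none of them past limma's threshold. FGF2 signal was 2195 ± 234 untreated and 1521 ± 167 with SHH and FGF7 signal 1480.2 ± 169.7 untreated and 985 ± 101 with SHH (SD, n = 3). TGFB2, a ligand of the TGFBR1 complex, lay at -0.45 ± 0.14. The bone morphogenetic proteins BMP2 and BMP6, ligands of BMPR2, lay in opposite directions, at 0.87 ± 0.11 and -0.91 ± 0.11. Of the vascular and platelet-derived growth factors, VEGFA, PDGFC and PDGFD lay at 0.98, 0.93 and 0.34, and VEGFC at -0.41. ANGPT1 and GAS6, ligands of the TIE2 and TAM receptors, lay at -0.46 and -0.36, and HGF, the ligand of MET, at 0.32. The other 4 were CSF1 at 0.46, WNT5A at 0.25, BDNF at -0.40 and IGF2 at -0.39. The groups of CSF1 and GAS6 overlapped. Each ligand is represented by its brightest named probe set. The median log2 difference of the 20 was -0.37.

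Among the 37 protein kinases inside the cell, 15 were higher and 22 lower. CDK7, the catalytic subunit of the CDK-activating kinase and of the transcription factor TFIIH, gave 4385, 4306 and 4439 on the untreated arrays and 6954, 7409.6 and 6794 on the SHH arrays. The SHH arrays lay at least 2355 signal units above every untreated array, and the difference was 0.69 ± 0.10, 1.61-fold. CDK6, which drives entry into S phase with D-type cyclins, was higher on all 5 of its probe sets, by 0.35 to 0.76 on the log2 scale. Its brightest probe set gave 5690.0, 5794 and 5543 on the untreated arrays and 6534, 7383 and 7838 on the SHH arrays, a difference of 0.35 ± 0.12. The gene listed as CDK11, an old symbol that now matches more than 1 gene, lay at 0.34 ± 0.11, and CILK1, a MAK-like kinase of the cilium known in the files as ICK, at 0.49 ± 0.25. CDKN2B, the inhibitor p15 of CDK4 and CDK6, was higher as well. Its signals were 1959, 1954 and 1943 on the untreated arrays and 2482, 2424 and 2552 on the SHH arrays, which did not overlap, and its difference was 0.35 ± 0.10. Of these 6 genes, grouped with earlier results of these data known, only NEK7 was lower, at -0.32 ± 0.11. NEK7 is a kinase of spindle assembly and of the inflammasome.

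GSK3B, glycogen synthase kinase 3 beta, was higher on all 3 of its probe sets, at 0.52, 0.67 and 0.78. The brightest of them gave 4403, 4558 and 5077 on the untreated arrays and 6143, 6704 and 7292 on the SHH arrays; the groups did not overlap. CSNK2A1, the catalytic subunit of casein kinase 2, gave 1143, 1398 and 1357 on the untreated arrays and 1873, 1939.6 and 1920.3 on the SHH arrays, a difference of 0.56 ± 0.12. It is a different enzyme from casein kinase 1. The SHH arrays of CSNK2A1 lay within 66.7 signal units of each other. HIPK3, a nuclear kinase that binds homeodomain proteins, had signals of 248, 471 and 401 on the untreated arrays and 543, 551 and 561 on the SHH arrays, with a wide untreated group and a narrow SHH group and a difference of 0.59 ± 0.24. The tau tubulin kinase TTBK1 was dim, with 35.8, 143 and 98.7 on the untreated arrays and 264, 199 and 223 on the SHH arrays. The untreated arrays were far apart, and the difference was 1.31 ± 0.42.

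On the cyclic AMP side, both regulatory subunits of protein kinase A with a name here were higher and both anchors were lower. PRKAR2B, the type II beta subunit, gave 2438, 2741 and 3000.2 on the untreated arrays and 3937, 4286 and 4198 on the SHH arrays, a difference of 0.60 ± 0.12. PRKAR1A, the type I alpha subunit, lay at 0.45 ± 0.21, with untreated arrays at 1909, 3212 and 2808 and SHH arrays between 3335 and 3737. The untreated spread of PRKAR1A was thus wider than its distance to the SHH arrays. AKAP12 (gravin) is a scaffold that holds protein kinase A and protein kinase C near the membrane. Its brightest probe set gave 3249, 3079.6 and 3262 on the untreated arrays and 1601, 2028 and 1700.3 on the SHH arrays, a 1.8-fold lower level with SHH, and its 4 probe sets lay between -1.04 and -0.79. The other anchor, listed as AKAP2 and now part of PALM2AKAP2, lay at -0.31 ± 0.10. No gene of a catalytic subunit of protein kinase A had a name here.

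**Figure D2:**
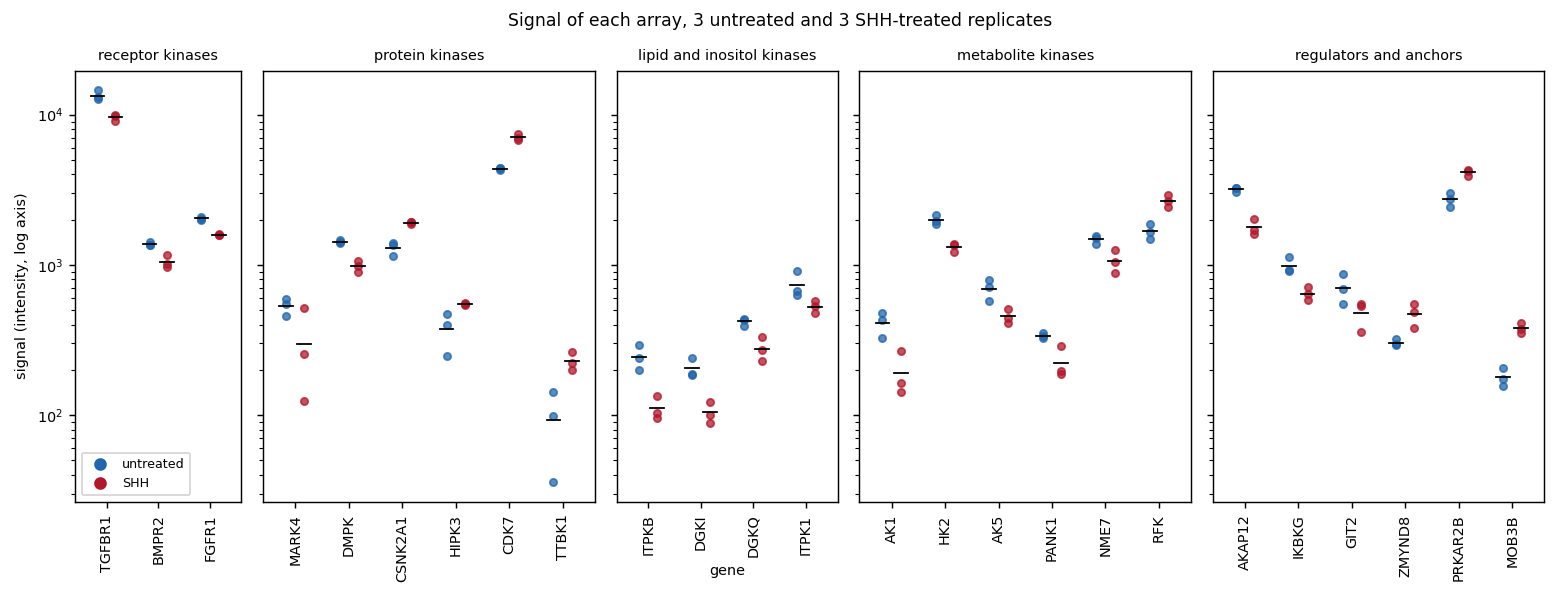
Signal (intensity, log axis) on each array for the 25 genes given in full, by role. Blue points are the 3 untreated arrays, red points the 3 SHH arrays and black lines the group means. The groups overlap for MARK4, whose SHH arrays run from 124 to 519, and lie apart for the other 24.

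Genes of protein kinase C, diacylglycerol and calcium signalling, put together with their values known, were all lower, 11 of 11. ZMYND8, first named as a protein kinase C binding protein, is not counted among them and was higher, at 0.59 ± 0.16. The count, and the median given below for these genes, thus depend on the grouping. PRKCA and PRKCE, forms of protein kinase C that diacylglycerol activates, lay at -0.29 ± 0.13 and -0.52 ± 0.15, and PRKD1, which acts downstream of protein kinase C, at -0.46 ± 0.13. PRKCE signals were 524, 464 and 428 on the untreated arrays and 278, 334 and 364 on the SHH arrays. MARCKS, a protein kinase C substrate that binds actin and the membrane, was lower on all 5 of its probe sets, by amounts between -0.98 and -0.46. Its brightest probe set, with 8858, 9688 and 8644 on the untreated arrays and 6022, 6781 and 6908 on the SHH arrays, showed the smallest of these differences. At the second brightest probe set MARCKS signal was 5828 ± 59.3 untreated and 3096 ± 122 with SHH (SD, n = 3), a difference of -0.91.

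DGKI and DGKQ are diacylglycerol kinases, which convert diacylglycerol to phosphatidic acid and so end its signal. DGKI was dim, with 186, 240.0 and 188 on the untreated arrays and 88.8, 101 and 123 on the SHH arrays, and a difference of -0.88 ± 0.17. DGKQ gave 395, 430.2 and 436 on the untreated arrays and 273, 228 and 331 on the SHH arrays, -0.59 ± 0.16 on the log2 scale. Both had their groups apart. The inositol phosphate kinases act on inositol phosphates, of which inositol trisphosphate is the other product of phospholipase C. ITPKB, which phosphorylates inositol trisphosphate, gave 239, 291 and 201 on the untreated arrays and 133, 104 and 96.3 on the SHH arrays. The SHH arrays were all below the untreated arrays, and the difference of -1.03 ± 0.19 was the largest in size among the lipid and inositol kinases brighter than the median. ITPK1 gave 905, 626 and 666 on the untreated arrays and 529, 577 and 476 on the SHH arrays and lay at -0.45 ± 0.18. IP6K3, an inositol hexakisphosphate kinase, was dim and its groups overlapped, with 83.4, 45 and 104 on the untreated arrays and 53, 3.30 and 5.52 on the SHH arrays.

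CAMK2D, the delta form of calcium/calmodulin-dependent kinase II, was lower on 3 of 3 probe sets, at -0.31, -0.50 and -0.46, and its brightest gave 6714, 6785 and 7187 on the untreated arrays and 5679, 5329 and 5654 on the SHH arrays. DAPK1, a calmodulin-regulated kinase linked to cell death, lay at -0.44 ± 0.11. A probe set titled as calmodulin 2 (CALM2), which is also the delta subunit of phosphorylase kinase, lay at -0.50 ± 0.10. The authors' own symbol marks it as intronic, so that it may not measure the mature transcript. PTK2B, the calcium-sensitive tyrosine kinase PYK2, was near or under the median of all probe sets, with 126, 122 and 107 on the untreated arrays and 18.9, 42.6 and 15.1 on the SHH arrays. It lay at -1.74 ± 0.26, and at -2.30 or -1.03 where 1 or 64 was added in place of 16. ITPK1 and IP6K3, described with the inositol kinases, are not counted among the 11. Over these 11 genes the median log2 difference was -0.50, beside -0.34 for all 67.

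**Figure D3:**
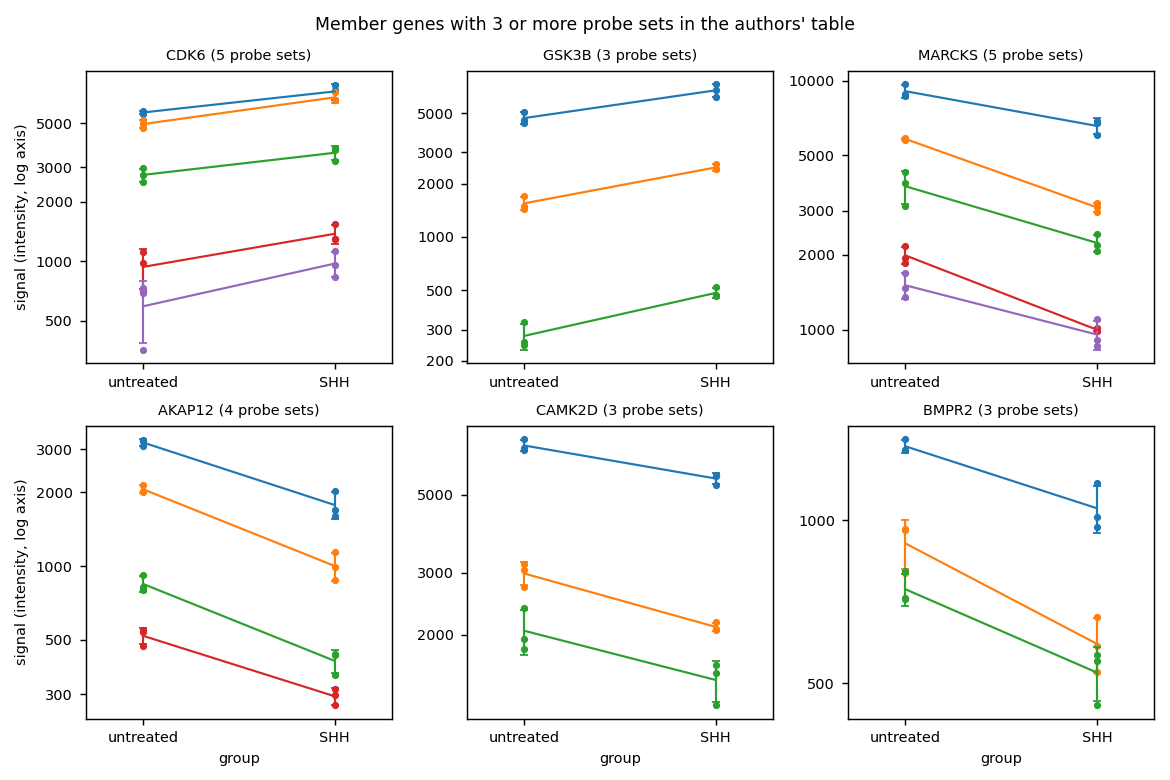
Mean signal (intensity, log axis) in untreated and SHH-treated cells for each probe set of the 6 genes with 3 or more of them. Points are single arrays, bars the SD of 3 arrays, and each colour is 1 probe set. All lines of CDK6 and GSK3B go up with SHH and all lines of MARCKS, AKAP12, CAMK2D and BMPR2 go down.

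In all, 12 genes had more than 1 probe set among the 90, and each of the 12 had them in 1 direction. Probe sets of 1 gene read the same RNA on the same arrays and were each chosen by p-value, so that they are no replicates, and probe sets of these genes outside the authors' table have no name here. The size differed more than the direction. MAP3K4 lay at -0.36 by its brightest probe set and at -0.94 by the other, and MOB3B at 1.03 and 1.67.

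Kinase-titled genes that act on the cytoskeleton were mostly lower. Grouped with their values known, 7 of 8 such genes, among them the adaptor GIT2, were lower and TTBK1 was higher. DMPK, the myotonic dystrophy kinase, and CDC42BPA, its relative downstream of CDC42, lay at -0.54 ± 0.11 and -0.51 ± 0.11. DMPK gave 1407, 1459 and 1421 on the untreated arrays and 895, 979 and 1066 on the SHH arrays, with narrow groups that lay apart. MARK4, which phosphorylates microtubule-associated proteins, gave 589, 456 and 552 on the untreated arrays and 124, 519 and 256 on the SHH arrays. The highest SHH array was 4.20 times the lowest and lay among the untreated arrays. The probe set titled LIMK2, a kinase of cofilin, carries another symbol from the authors (PPP1R14B), and lay at -0.52 ± 0.13. STK10, UHMK1 and the adaptor GIT2 lay at -0.49, -0.31 and -0.53, and GIT2 signals of 865, 549 and 687 on the untreated arrays and 530.2, 358 and 547 on the SHH arrays almost met between the groups.

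Kinases of the MAP kinase cascades lay in both directions. MAP3K20 (listed as ZAK) was lower at -0.24 ± 0.11 and RPS6KA2, a ribosomal S6 kinase activated by ERK, higher at 0.30 ± 0.11. TAB2, the adaptor that couples TAK1 to its receptors, lay at 0.31 ± 0.11. IKBKG, the regulatory subunit NEMO of the IkB kinase complex, was lower, with 915, 1122 and 925 on the untreated arrays and 644, 710.1 and 581 on the SHH arrays and a difference of -0.60 ± 0.14. PIK3R1, the p85 alpha subunit that holds PI3 kinase and binds receptor kinases, was lower on both of its probe sets, at -0.52 and -0.44. MOB3B, a member of the MOB family of kinase activators, showed the largest increase among the regulators. It gave 206, 156 and 174 on the untreated arrays and 411, 376 and 350.2 on the SHH arrays, 2.04-fold higher with SHH, a log2 difference of 1.03 ± 0.14. ZMYND8, a chromatin reader first named as a protein kinase C binding protein, gave 294, 299.8 and 319 on the untreated arrays and 547, 489 and 378 on the SHH arrays and lay at 0.59 ± 0.16.

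Of kinases that sense energy and nutrients, PRKAA1, the alpha 1 catalytic subunit of AMP-activated kinase, and ULK2, a starter of autophagy, were higher at 0.47 ± 0.15 and 0.45 ± 0.13. EIF2AK4 (GCN2), which senses amino acid shortage, and PDK4, the mitochondrial kinase that turns off pyruvate dehydrogenase, were lower at -0.31 ± 0.11 and -0.49 ± 0.11. PDK4 signals were 627, 574 and 556 on the untreated arrays and 419, 424 and 396 on the SHH arrays. SGK1, a kinase induced by serum and glucocorticoids, lay at -0.34 ± 0.11, and WNK1, which controls ion transport, at -0.51 ± 0.16.

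Metabolite kinases were 4 higher and 5 lower. RFK, riboflavin kinase, which makes flavin mononucleotide, was higher on both of its probe sets, and the brighter gave 1492, 1654 and 1885 on the untreated arrays and 2420.2, 2905 and 2655 on the SHH arrays, a difference of 0.66 ± 0.14. HK2, the inducible hexokinase that starts glycolysis, gave 2135, 1974 and 1873 on the untreated arrays and 1368, 1358 and 1216 on the SHH arrays. Its groups lay apart, with a difference of -0.60 ± 0.12. PFKP, the platelet form of phosphofructokinase and a later step of the same pathway, lay in the other direction at 0.24 ± 0.11, with untreated arrays from 3855 to 4090 and SHH arrays from 4243 to 4922.

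The adenylate kinases, which balance ATP, ADP and AMP, went both ways. AK1 gave 327, 429 and 475 on the untreated arrays and 164, 266 and 143 on the SHH arrays, 2.1-fold lower with SHH (-1.07 ± 0.26), and AK5 gave 789, 577 and 709 on the untreated arrays and 506, 409 and 446 on the SHH arrays (-0.58 ± 0.16). The gene listed as AK3L1, an old symbol shared by more than 1 current gene, was bright and higher at 0.24 ± 0.11. PANK1, pantothenate kinase of coenzyme A synthesis, gave 350.2, 337 and 325 on the untreated arrays and 287, 189 and 196 on the SHH arrays, a difference of -0.58 ± 0.18. NME7, of the nucleoside diphosphate kinase family, gave 1375, 1559 and 1520.5 on the untreated arrays and 877, 1259 and 1047 on the SHH arrays, -0.49 ± 0.16 on the log2 scale. KHK, ketohexokinase, the first enzyme of fructose use, was dim, with 60.8, 53.1 and 21.9 on the untreated arrays and 178, 138 and 193 on the SHH arrays. The groups lay apart, and the difference was 1.65, or 1.11 with 64 added to the signal in place of 16.

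**Figure D4:**
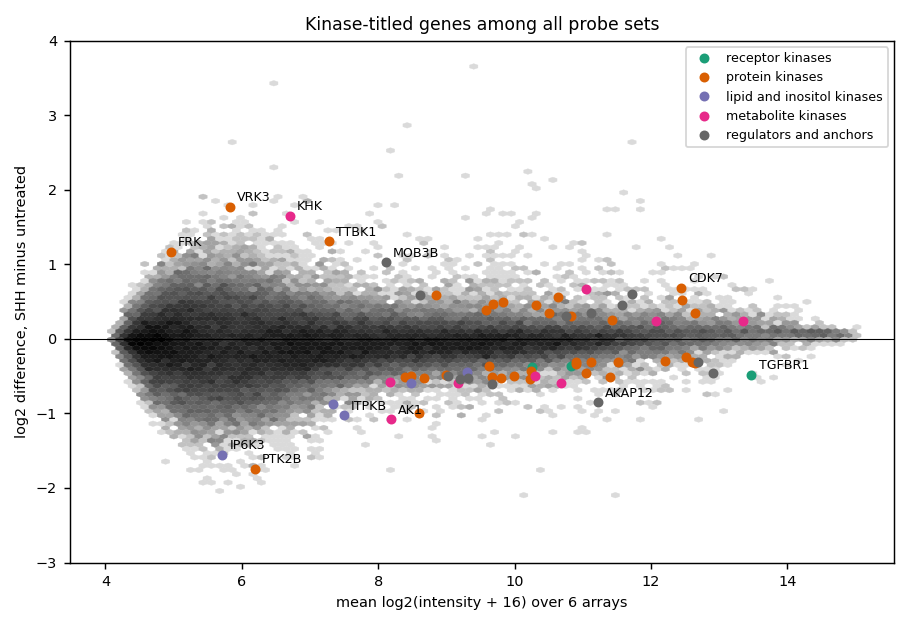
Log2 difference (SHH minus untreated, y axis) against mean log2(intensity + 16) over the 6 arrays (x axis). Coloured points are the 67 genes by role, and grey shading shows the density of all 54613 probe sets on a log scale, darker for more. Each gene is drawn by its brightest probe set. The genes with differences over 1.2 in size, VRK3, KHK, TTBK1, IP6K3 and PTK2B, sit at the dim end. No gene drawn with a mean above 9 on the x axis differs by more than 0.85. Further probe sets of some genes, which are not drawn, differ by more there, such as an AKAP12 probe set at -1.04 with a mean of 10.5.

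The median signal of the 67 genes was 1208, beside 1087 in the authors' table and 102 over all probe sets, and 5 of the 67 were dimmer than the median. These 5 were VRK3, FRK, PTK2B, KHK and IP6K3. VRK3, a kinase relative that lacks catalytic activity, gave 19.1, 6.56 and 20.4 on the untreated arrays and 94.2, 101 and 73.3 on the SHH arrays, and its difference of 1.77 was the largest of all 67 genes with 16 added to the signal, and it was 2.60 with 1 and 0.95 with 64 added. FRK, a SRC-family tyrosine kinase of epithelia, gave 5.95, 2.84 and 5.67 on the untreated arrays and 48.1, 20.7 and 27.4 on the SHH arrays. All 3 untreated arrays of FRK were under 6 signal units, and no detection call is given that would tell a low level from background. The remaining protein kinases were BMP2K, a kinase induced by a bone morphogenetic protein, at -0.51, DSTYK at -0.50, the alpha-kinase ALPK2 at -0.31, the RIO-family kinase RIOK3 at 0.25 and DYRK4 at 0.39, with groups apart in each.

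Among cell type markers, 7 of 14 fibroblast markers had a name, 2 higher and 5 lower. Names come only from the authors' p-value table. A name thus marks a difference with SHH, and neither a name nor its lack tells whether a cell type is present. COL6A3 and PDPN lay at 0.35 and 0.57, and POSTN, COL3A1, S100A4, FAP and PDGFRB at -0.98, -0.66, -0.50, -0.47 and -0.46. COL6A3 signal was 16241 ± 748 untreated and 20709 ± 927 with SHH and POSTN signal 3239 ± 124 untreated and 1639.9 ± 213 with SHH (SD, n = 3). The 1 named probe set of COL3A1 was far dimmer than that of COL6A3, at 395 ± 65.3 untreated and 243 ± 37.4 with SHH (SD, n = 3). Of 5 smooth muscle and myofibroblast markers 2 had a name, MYH11 at 0.94 and CNN1 at -0.29. Of other cell types, KRT18 (epithelial) was at 5677 ± 349 untreated and 4241 ± 258 with SHH, CD14 (monocytes) at 161 ± 53.7 untreated and 268 ± 16 with SHH and UCHL1 (neurons) at 3998 ± 154 untreated and 6390.4 ± 195 with SHH (SD, n = 3), each the 1 named gene of its list, and none of the 6 endothelial markers had a name. The pericyte markers RGS5 and KCNJ8 lay at -0.66 and -0.88. The part of such cells in the differences above was not tested, and fewer cells of a type and less RNA per cell cannot be told apart in bulk RNA.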

How the data were processed

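The members and gene lists were chosen with earlier results of these data known. Total RNA was made into biotin-labelled cRNA and hybridised to single-colour Affymetrix arrays, per the labels' protocols. The deposited value table holds 1 linear intensity for each of 54613 probe sets on each of 6 arrays. Means of the deposited intensities, with 2% trimmed at each end, were 498.1 to 498.2 on every array, so the arrays share a scale, and array medians were 94.4 to 111, while how the images were read, the probes summarised and the arrays scaled, and which array was used, is not stated in the sources used here. The deposited comparison (Cyber-T, per the deposited readme) gives a p-value, q-value, log2 fold change and t statistic (a score) per probe set, as untreated minus SHH. It was used for names and for the choice of members, with signs turned here. No per-sample column of another series was found (0).

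Groups came from sample titles. Through the RefSeq gene table (GRCh38.p14), 52 symbols proved current, 13 were updated and 2 (CDK11, AK3L1) were kept because they match several genes. Roles were assigned by hand from titles. No array coordinates are given, because no build is named.

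All probe sets were fitted with limma 3.58.1 in R 4.3.3 (lmFit, eBayes, 2-sided, Benjamini-Hochberg over 54613, adjusted p under 0.05) on log2(intensity + 16), after a test on simulated data. Tables were joined with pandas 2.3.3 in Python 3.11.15. With 3 arrays per group, precision is limited by their number. Signals on each array are given for the 6 genes per role with the largest difference among those brighter than the median (25 genes), and for others named after their values were seen. Other scalings, pseudocounts, filters, priors, a replicate block and left-out arrays were tried. Correlations of the deviations of same-numbered arrays were 0.02, 0.01 and -0.04, and those of other pairs lay between -0.06 and 0.05. No pairing by number was seen, but with 3 arrays per group these values cannot tell whether the cultures were paired. Batches are not labelled. The p-values measure only the spread between these cultures.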

Additional observations from a re-analysis of the deposited data

How the results depend on the processing

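The direction of each of the 67 genes was kept in all 732 recomputed values. These covered pseudocounts of 1 and 64, centred and quantile-normalized arrays, a filter on dim probe sets and each of the 6 arrays left out. For the 65 genes with groups apart, new pseudocounts, the filter and left-out arrays cannot reverse a direction. Of the values, 27, in 20 genes, moved by more than the spread between replicates. The genes higher with SHH numbered 25 in all of these settings but the filter, which left 62 genes, 22 of them higher. The median log2 difference of all 67 genes, or of the 62 left by the filter, lay between -0.37 and -0.25. The genes with groups apart numbered 57 with centred arrays and 61 to 67 otherwise. Centring moved the median of all probe sets by 0.09. The count of genes past limma's adjusted threshold, 0 as reported, became 27 with an intensity trend, 10 with only probe sets brighter than the median, 5 with a pseudocount of 64 and 3 by a plain equal-variance test, and was 0 with the replicate block. Over all probe sets the count of 67 moved to 1014, 558, 295 and 147 in these settings, and to 34 with centred arrays. It was 0 with a pseudocount of 1 (5009 at an unadjusted limma p under 0.05), 0 with the replicate block (4746) and 0 without any 1 array (4411 to 5180). The filter also tests fewer probe sets. The cause of these moves, that with the filter included, was not tested. Dim genes have differences that depend on the pseudocount.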

Other observations

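Phosphatases remove what kinases add. Of a list of 54 phosphatase genes, written with earlier results of these data known, 11 had a name, 5 higher and 6 lower, and 0 passed limma's adjusted threshold, beside 0.123% of all probe sets. All were named by their p-value in these samples, so that their values are a description. DUSP5, a nuclear phosphatase of ERK, lay at 0.96 ± 0.13 (limma's moderated SE, n = 3 per group), with signals of 822, 763 and 659 on the untreated arrays and 1414, 1442 and 1535 on the SHH arrays. DUSP1, which acts on several MAP kinases, was bright and lay at 0.37 ± 0.13, and DUSP10, which acts on JNK and p38, at -0.30 ± 0.11. The 3 receptor-type tyrosine phosphatases with a name were all lower, PTPRF at -0.45, PTPRK at -0.33 and PTPRM at -0.41. PPP3CA, a catalytic subunit of calcineurin, lay at 0.33 ± 0.12.

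Of 59 adaptors, RAS proteins, STATs and feedback inhibitors of receptor kinases, 12 had a name, 8 higher and 4 lower, and 0 passed limma's adjusted threshold, beside 0.123% of all probe sets. SPRY1, a feedback inhibitor of receptor tyrosine kinase signalling, gave 978, 909 and 1049.6 on the untreated arrays and 548, 534 and 530.2 on the SHH arrays, a log2 difference of -0.84 ± 0.11. The related SPRY2 lay at -0.49 ± 0.12. GRB2, the adaptor that couples receptors to RAS, and IRS1 and IRS2, the docking proteins of the insulin receptor, lay at 0.35, 0.26 and 0.24. The docking proteins GAB1 and GAB2 lay in opposite directions, at -0.38 and 0.50, and the groups of GAB2 overlapped. SOCS1 and SOCS5 lay at 0.44 and -0.34, and NF1 at 0.32. RASAL2, counted among the 8 higher genes, was very dim, with no signal above 2.42 on the untreated arrays or above 14.2 on the SHH arrays. The small GTPase MRAS was dim, with 153, 145 and 67.4 on the untreated arrays and 292, 185 and 202 on the SHH arrays. With an intensity trend in limma's prior, DUSP5, PTPRK and SPRY1 passed at an adjusted p under 0.05 among these 23 genes, beside 1.86% of all probe sets.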
